A study of Caenorhabditis elegans with 24 samples.

Results

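The genes described here are the PBX and MEIS class homeobox genes ceh-60, ceh-20, ceh-40, unc-62 and psa-3 of the nematode Caenorhabditis elegans. They were found by their WormBase identifiers, which gave 5 genes of the 46778 in each of the deposited count tables. RNA of whole adult animals had been sequenced in 24 libraries, 3 for each of 8 groups. Wild type animals of strain N2 and ceh-60(ok1485) mutants of strain DLS357 were taken on adult day 1 and on adult day 4. The other groups were all of adult day 1 and carried 1 of 2 pqm-1 alleles. These were pqm-1(ok485) (strain DLS421) and pqm-1(rhd90) (DLS424), each alone or together with ceh-60(ok1485) (DLS420 with ok485, DLS423 with rhd90). Strains with both mutations are named after the pqm-1 allele, as ok485 or rhd90 double mutants. The labels give 1 strain for each genotype and do not say which part of a gene any of the 3 alleles removes or alters.

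PBX and MEIS proteins are homeodomain transcription factors of the TALE class. They bind DNA in pairs or in larger complexes, often with a Hox protein, and MEIS partners can carry PBX proteins into the nucleus. In C. elegans ceh-60, ceh-20 and ceh-40 encode the PBX side, and unc-62 and psa-3 the MEIS side. CEH-60 is known to act with UNC-62 in the adult intestine on the vitellogenin genes, which encode yolk proteins, and pqm-1 encodes a zinc finger factor that also acts there. CEH-20 is the Hox partner in many larval cell lineages, and ceh-40 shares roles with ceh-20 in the embryo. psa-3 is known as a target of the Hox protein NOB-1 and CEH-20 in the asymmetric division of a cell of the tail.

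Positions were read from the deposited tables (WormBase release 260, per their header). ceh-60 (WBGene00017690) lies on chromosome X from 6522596 to 6530148 on the reverse strand, with 1333 bases of exon. ceh-20 (WBGene00000443) lies on chromosome III from 6979884 to 6981785 on the forward strand and has 1279 exon bases. ceh-40 (WBGene00000461) is on chromosome X from 12318240 to 12320777, reverse strand, with 1067 exon bases. The longest is unc-62 (WBGene00006796), on chromosome V from 4497463 to 4511449, forward strand, with 2897 exon bases. psa-3 (WBGene00009560) is on chromosome X from 15407931 to 15419290, forward strand, with 1147. The WBcel235 annotation lists 18 transcripts for unc-62 and 4 for psa-3, and counts per gene do not separate them.

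Neighbouring genes overlap 3 of the 5. ets-4, an ETS family factor gene on the opposite strand, shares 61 exon bases with the 3′ end of ceh-60. All 134 exon bases of F31E3.8 lie within exon of ceh-20, where reads on both genes were left out of either count. pqn-36 lies within the span of psa-3 on the opposite strand without sharing exon bases. The libraries were not stranded, and reads that overlapped several genes were not counted, so some reads near these places could belong to the partner.

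Total counts ranged from 18809461 to 32598349 per library, and no pair of replicates agreed within sampling noise. Whether the 3 replicates of a group came from separate cultures is not given in the labels, and p-values cover just the spread between these samples, which may be technical. None of the 5 genes was at 0 in any library. Counts per library were 675 to 1235 for unc-62, 162 to 401 for ceh-20, 88 to 472 for ceh-40, 15 to 264 for ceh-60 and 14 to 65 for psa-3. psa-3 and the mutants' ceh-60 thus rest on the fewest reads. Levels are in CPM (counts scaled to library size after TMM scaling within a table), given as mean ± SD with n = 3 libraries. Changes are log2 fold changes ± SE, and a gene is said to rise or fall where edgeR's quasi-likelihood test gave a Benjamini-Hochberg adjusted p under 0.05 over all genes tested. All 5 genes passed the filter on low counts in every fit.

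Compared per kilobase of exon, unc-62 had the highest mean level of the 5 in 7 of the 8 groups. In wild type on day 1 it stood at 11.6 ± 0.626 CPM per kilobase, ceh-20 at 7.61 ± 0.604, ceh-40 at 7.57 ± 0.973, ceh-60 at 4.74 ± 0.495 and psa-3 at 1.13 ± 0.0536. The levels of ceh-20 and ceh-40 overlapped there, and the other neighbours in this order did not. In wild type on day 4 the first place went to ceh-40, at 12.4 ± 1.25 CPM per kilobase against 11.8 ± 0.561 for unc-62, and these 2 overlapped. ceh-20 and ceh-40 were neighbours with overlapping levels in 5 of the 8 groups. In pqm-1(ok485), ceh-60 at 6.32 ± 0.623 CPM per kilobase overlapped ceh-40 at 6.7 ± 1.36. psa-3 was lowest in the 4 groups with an intact ceh-60, and ceh-60 itself was lowest in the 4 groups with ok1485. In those, ceh-60 overlapped psa-3 on day 1 in the ceh-60 mutant and in the ok485 double mutant.

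**Figure D1:**
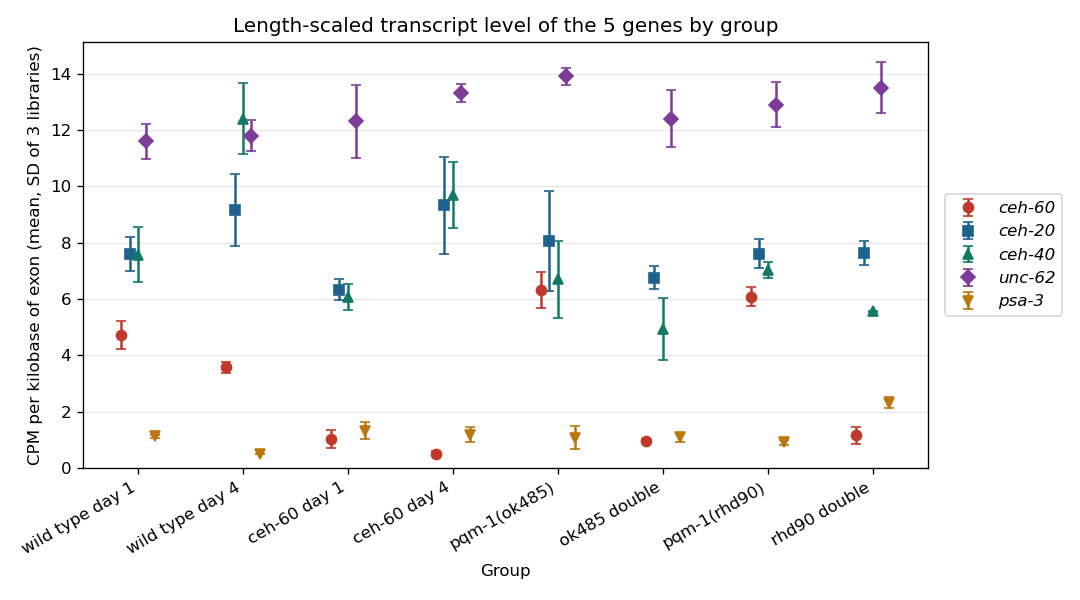
Mean level per kilobase of exon (CPM per kilobase, y axis) of each gene in the 8 groups (x axis), with bars for the SD of 3 libraries. unc-62 is highest except in wild type on day 4, where ceh-40 reaches 12.4, and ceh-60 drops to the level of psa-3 or below it in the 4 groups with ok1485.

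ceh-60, the mutated gene, was looked at first. In wild type on day 1 the 3 libraries gave 6.76, 5.56 and 6.64 CPM, and in the ceh-60 mutant 1.86, 1.02 and 1.27. On day 4 wild type gave 4.59, 5.09 and 4.65 CPM and the mutant 0.83, 0.636 and 0.61. The highest of the 12 libraries with ok1485 was at 1.98 CPM and the lowest of the 12 without it at 4.59, so the labels and the transcript level do not conflict in any library. pqm-1(ok485) had 8.68, 9.1 and 7.5 CPM and its double mutant 1.32, 1.37 and 1.17. pqm-1(rhd90) had 7.65, 8.56 and 8.14 CPM and its double mutant 1.98, 1.48 and 1.17.

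The mutants' ceh-60 level was 21.9% of that in wild type on day 1 and 14.6% on day 4. It was 15.3% in the pqm-1(ok485) background and 19.3% in pqm-1(rhd90). ceh-60 fell in each of these 4 comparisons, by 2.19 ± 0.20 on the log2 scale (day 1, adjusted p = 3.52e-06), 2.78 ± 0.21 (day 4, 8.18e-07), 2.71 ± 0.17 (ok485, 9.04e-07) and 2.38 ± 0.17 (rhd90, 1.76e-06). Of all genes tested, 25.5% were called on day 1, 24.4% on day 4, 8.97% in the ok485 background and 11.9% in rhd90. With the replicate number as a block the ok485 share was 16.2%, and ok485 values are from the fit without the block unless stated. The size of the ceh-60 reduction did not pass the test of a difference between days or backgrounds. The ceh-60 effect on its own transcript on day 4 minus that on day 1 was -0.59 ± 0.29 (adjusted p = 0.321, 95% interval -1.22 to 0.04), in a comparison that called 4.04% of all genes. In ok485 minus wild type it was -0.50 ± 0.28 (adjusted p = 0.273, 95% interval -1.09 to 0.08, 4.43% of genes called). In rhd90 minus wild type it was -0.21 ± 0.28 (adjusted p = 0.904, 95% interval -0.79 to 0.38, 0.272% of genes called). Reads left over whole exons do not tell whether a functional transcript remains.

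**Figure D2:**
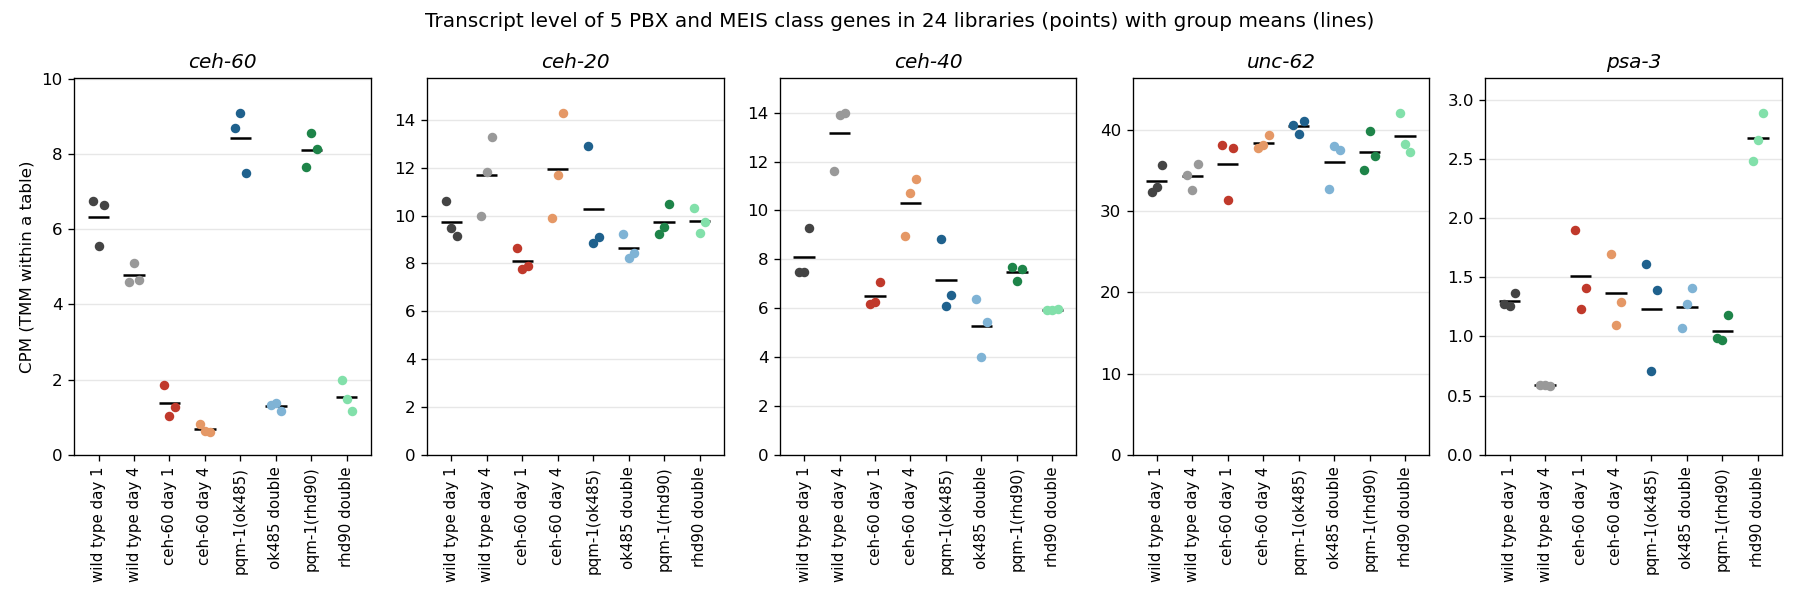
Level in CPM after TMM scaling within a table (y axes, each from 0) of the 5 genes in every library (points), by group (x axes), with group means as lines. ceh-60 separates the groups with and without ok1485 (at most 1.98 against at least 4.59), and psa-3 is lowest in wild type on day 4 and highest in the rhd90 double mutant.

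Among the other PBX genes, ceh-40 had lower mean levels without ceh-60 in all 4 pairs of groups. On day 1 wild type gave 7.46, 7.49 and 9.28 CPM and the ceh-60 mutant 6.16, 6.24 and 7.06. On day 4 wild type gave 11.6, 13.9 and 14 CPM and the mutant 8.94, 10.7 and 11.3. The groups did not overlap on either day. The share of all genes without overlap was not counted, here or for the other members, so overlap only describes the libraries. pqm-1(ok485) gave 8.81, 6.1 and 6.54 CPM and its double mutant 6.36, 4.01 and 5.44, which overlap. pqm-1(rhd90) gave 7.7, 7.13 and 7.62 CPM and its double mutant 5.91, 5.93 and 5.96, which do not.

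In single pairs, the change in ceh-40 was near the threshold. It fell by 0.35 ± 0.12 on the log2 scale on day 4 (adjusted p = 0.047), and over the 12 omissions of 1 library the adjusted p ran from 0.0258 to 0.124. The call was lost in 9 of them and held without replicate 3 of wild type on day 1, replicate 1 of wild type on day 4 or replicate 3 of the ceh-60 mutant on day 4. The log2 fold change was -0.32 ± 0.13 on day 1 (adjusted p = 0.0871), -0.45 ± 0.17 in ok485 (0.132) and -0.33 ± 0.17 in rhd90 (0.263). Same-numbered libraries deviated together in the ok485 comparison, and with the replicate number as a block it was -0.45 with adjusted p = 0.036, in a fit that called 16.2% of all genes. In the fit without the block, leaving out replicate 1 of pqm-1(ok485), the library with the most ceh-40 in that group, gave -0.25 (adjusted p = 0.478). Libraries were not left out of the blocked fit. The 4 pairs share no library, and their mean, a comparison added after the data had been seen, was -0.36 ± 0.07 (adjusted p = 0.000525), or 77.7% of the level with intact ceh-60. That fit called 37.3% of all genes, and the mean of ceh-40 stayed between -0.40 and -0.32 when each of the 24 libraries was left out in turn.

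**Figure D3:**
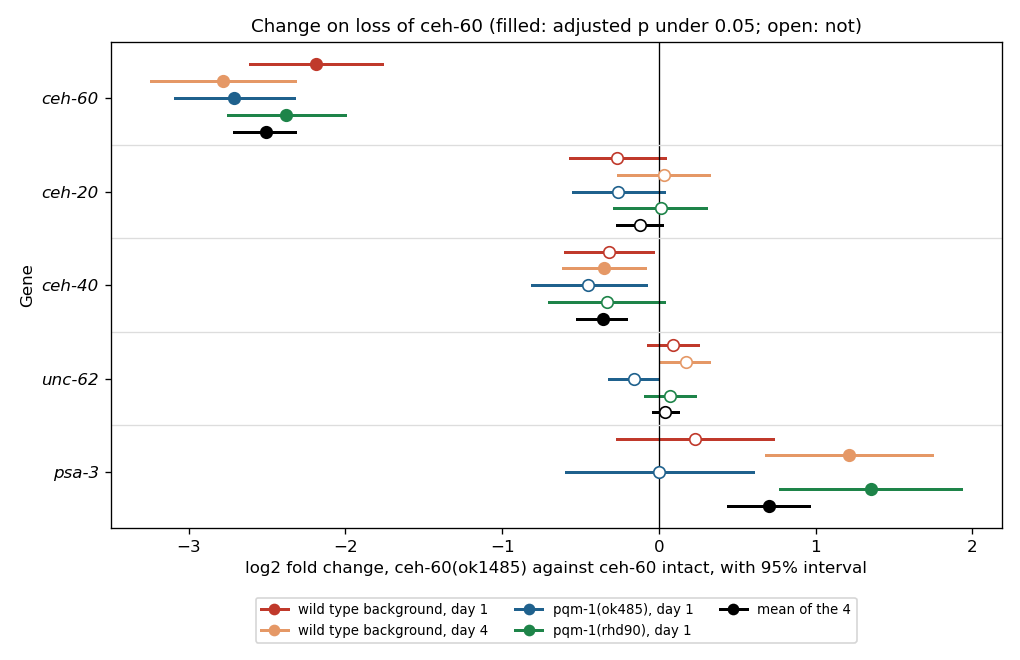
log2 fold change on loss of ceh-60 (x axis, points) with its 95% interval (lines) for each gene (y axis) in the 4 pairs of groups and in their mean. Filled points have an adjusted p under 0.05. ceh-40 lies between -0.45 and -0.32 in the 4 pairs, and psa-3 between 0.00 and 1.35.

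ceh-20 passed edgeR's test in none of the 4 comparisons, had no unadjusted p under 0.05 in them and was not called by DESeq2. Its libraries on day 1 were at 10.6, 9.47 and 9.13 CPM in wild type and at 8.65, 7.76 and 7.89 in the ceh-60 mutant, without overlap, but the log2 fold change of -0.27 ± 0.14 had an adjusted p of 0.174 (95% interval -0.57 to 0.04). On day 4 the values were 10, 11.8 and 13.3 CPM against 9.88, 11.7 and 14.3, and the groups overlapped throughout. The log2 fold change was 0.03 ± 0.13 on day 4 (95% interval -0.26 to 0.32). In rhd90 it was 0.01 ± 0.14 (-0.29 to 0.30). In ok485, where the libraries were at 12.9, 8.87 and 9.11 CPM without ok1485 and 9.22, 8.24 and 8.45 with it, the change was -0.26 ± 0.13 (adjusted p = 0.275) and -0.05 without replicate 1 of pqm-1(ok485). The mean over the 4 pairs was -0.12 ± 0.07 (adjusted p = 0.164, 95% interval -0.27 to 0.02).

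unc-62, the MEIS partner of CEH-60, had the narrowest range of group means of the 5 on the log scale, in that they ran from 33.6 ± 1.81 CPM in wild type on day 1 to 40.4 ± 0.837 in pqm-1(ok485). On day 1 the libraries were at 32.3, 32.9 and 35.7 CPM in wild type and 38.1, 31.3 and 37.8 in the ceh-60 mutant, and on day 4 at 34.4, 32.6 and 35.8 against 37.7, 38.1 and 39.4. The groups overlapped on day 1 and did not on day 4. Its log2 fold change was 0.09 ± 0.07 on day 1 (95% interval -0.07 to 0.25) and 0.17 ± 0.07 on day 4 (adjusted p = 0.118, 0.01 to 0.32). In ok485 the sign was the other one, at -0.16 ± 0.07 (adjusted p = 0.205, -0.32 to -0.01), and in rhd90 it was 0.07 ± 0.07 (-0.09 to 0.23). Neither edgeR nor DESeq2 called unc-62 in any of the 4, and its unadjusted p was 0.0411 on day 4 and 0.043 in ok485. The mean of the 4 was 0.04 ± 0.04 with a 95% interval of -0.04 to 0.12, which bounds an average change summed over all unc-62 transcripts.

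psa-3, the second MEIS class gene, had the lowest level per kilobase in the groups with intact ceh-60. On loss of ceh-60 it passed the test in 2 of the 4 pairs. On day 4 wild type libraries were at 0.588, 0.588 and 0.581 CPM (15, 20 and 14 counts) and the ceh-60 mutant at 1.7, 1.1 and 1.29 (45, 26 and 36 counts). In the rhd90 background they were at 0.989, 0.968 and 1.18 CPM without ok1485 and at 2.48, 2.66 and 2.89 with it (52 to 65 counts). Neither pair overlapped. psa-3 rose by 1.21 ± 0.25 on the log2 scale on day 4 (2.32-fold, adjusted p = 0.00292) and by 1.35 ± 0.27 in rhd90 (2.55-fold, adjusted p = 0.00446). Leaving out any single library kept both calls, with adjusted p up to 0.0181 and 0.0276.

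The other pairs gave psa-3 no call. On day 1 wild type was at 1.27, 1.26 and 1.37 CPM and the ceh-60 mutant at 1.9, 1.23 and 1.41, which overlap. The log2 fold change there was 0.23 ± 0.23 (adjusted p = 0.484, 95% interval -0.27 to 0.73). pqm-1(ok485) ranged from 0.704 to 1.61 CPM, its double mutant from 1.07 to 1.41, and the change was 0.00 ± 0.27 (adjusted p = 0.996, -0.59 to 0.60). The tests of the differences between pairs did not pass either. The ceh-60 effect on psa-3 was larger by 0.99 ± 0.34 on day 4 than on day 1 (adjusted p = 0.137, 95% interval 0.26 to 1.72) and by 1.11 ± 0.35 in rhd90 than in wild type (adjusted p = 0.287, 0.37 to 1.84). It was larger by 1.34 ± 0.38 in rhd90 than in ok485 (adjusted p = 0.226, 0.52 to 2.17), in a comparison added after the data had been seen that called 0.345% of all genes. The mean of the 4 pairs, likewise added after the data had been seen, was 0.70 ± 0.12 (adjusted p = 0.000133), over values from 0.00 to 1.35. The fit of that mean called 37.3% of all genes.

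Between day 1 and day 4 the PBX and MEIS genes moved in different directions. In wild type, where 54.8% of all genes were called, ceh-40 rose by 0.71 ± 0.12 on the log2 scale (adjusted p = 0.000277) from 8.08 ± 1.04 to 13.2 ± 1.33 CPM. psa-3 fell by 1.14 ± 0.25 (adjusted p = 0.00173) from 1.3 ± 0.0614 to 0.586 ± 0.0041 CPM. Not called were ceh-60 at -0.40 ± 0.17 (adjusted p = 0.0623), ceh-20 at 0.26 ± 0.14 (0.117) and unc-62 at 0.03 ± 0.07 (0.78). With 2 of 5 called, the members did not exceed the share of all genes.

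In ceh-60 mutants 52.6% of all genes were called between the days, and among the 5 ceh-40 rose by 0.67 ± 0.13 (adjusted p = 0.000605), ceh-20 rose by 0.56 ± 0.14 (0.00418) and the residual ceh-60 transcript fell by 0.99 ± 0.24 (0.00348). psa-3 was at -0.15 ± 0.23 (0.605) and unc-62 at 0.10 ± 0.07 (0.249). ceh-40 thus had a similar size of change in both genotypes, and the difference between them was -0.04 ± 0.18 (adjusted p = 0.949, 95% interval -0.42 to 0.34). For ceh-20 that difference was 0.29 ± 0.19 (adjusted p = 0.483, -0.12 to 0.71). These comparisons use the same 12 libraries as the effect of ceh-60 on each day.

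**Figure D4:**
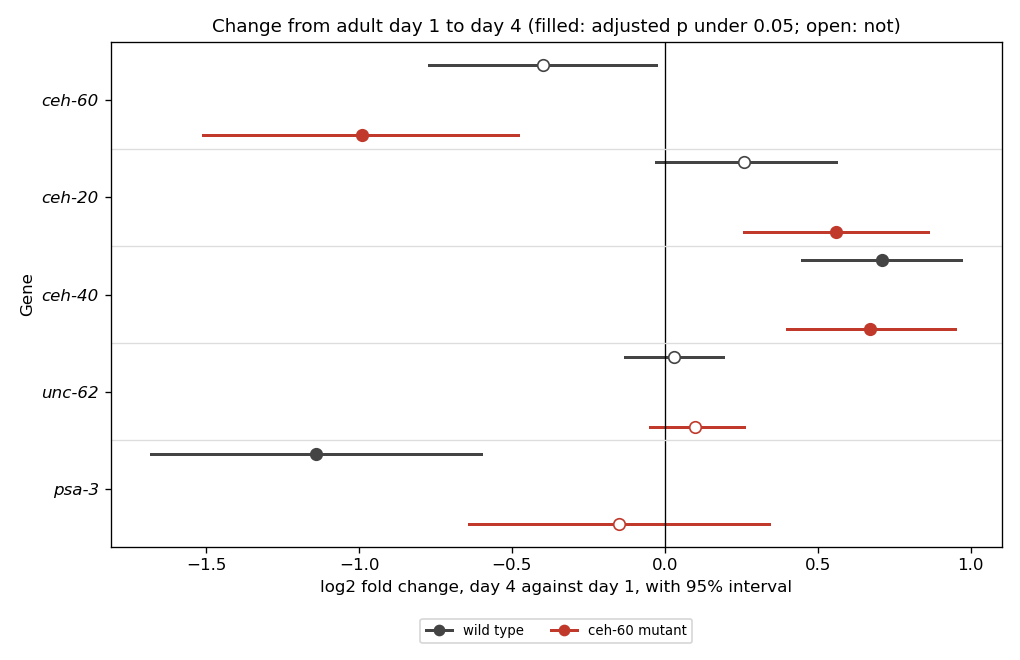
log2 fold change from adult day 1 to day 4 (x axis, points) with its 95% interval (lines) for each gene (y axis) in wild type and in ceh-60 mutants. Filled points have an adjusted p under 0.05. ceh-40 rises by 0.71 and 0.67, and psa-3 falls by 1.14 in wild type and stands at -0.15 in the mutant.

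The level of ceh-40 was set beside markers of early embryos, which adult hermaphrodites carry inside them. The summed level of 8 early zygotic genes (end-1, end-3, tbx-35, tbx-37, tbx-38, hlh-27, ceh-51 and pes-1), after TMM scaling over all 24 libraries, was 7.25 to 8.22 CPM in wild type on day 1 and 17.1 to 23.7 on day 4. In ceh-60 mutants it was 5.49 to 6.24 CPM on day 1 and 12.7 to 19.4 on day 4. It was 4.85 to 10.2 CPM in pqm-1(ok485) and 5.03 to 6.16 in its double mutant, and 6.94 to 9.29 in pqm-1(rhd90) and 5.6 to 6.36 in its double mutant. The sum was higher on day 4 than on day 1 and, in group means, lower without ceh-60, as was ceh-40, but its members did not move as one with age. Replicate 1 of pqm-1(ok485) had the highest value of its group for the sum (10.2 CPM), for ceh-40 and for ceh-20.

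Of the 8 markers, 6 passed the filter in the first table. From day 1 to day 4, 3 of these rose and 2 fell in wild type, where 54.8% of all genes were called. In ceh-60 mutants 2 rose and 2 fell, where 52.6% were called. The T-box genes tbx-37 (2.57 ± 0.29 in wild type, adjusted p = 8.12e-06, and 2.94 ± 0.32 in the mutants, 5.91e-06) and tbx-38 (3.01 ± 0.26, 6.78e-07, and 3.47 ± 0.28, 4.25e-07) rose. The endoderm gene end-1 (-2.67 ± 0.36, 3.89e-05, and -1.57 ± 0.37, 0.00293) and the mesoderm gene ceh-51 (-2.12 ± 0.34, 0.00016, and -1.90 ± 0.36, 0.000701) fell. The rise of the sum with age thus rests on some of its genes. On loss of ceh-60 edgeR called none on day 1 (pes-1 alone had an unadjusted p under 0.05) while pes-1 fell by 0.59 ± 0.14 on day 4 (adjusted p = 0.00873). Of all genes, 25.5% were called on day 1 and 24.4% on day 4. The markers' median log2 fold change was -0.54 on day 1 and -0.24 on day 4, against -0.03 and -0.00 for all genes. One of the 8 was at 0 in the 3 ceh-60 libraries of day 4, and none was at 0 throughout another group. In whole animals, fewer cells of a type and less RNA per cell cannot be told apart, and the part of embryo content in the level of ceh-40 was not tested. Summed oocyte markers varied less, from 6100 to 9760 CPM over all libraries of the 8 groups. The sum of 6 later embryo markers (hlh-1, die-1, lin-26, elt-1, elt-3 and vab-7) was 246 to 251 CPM in wild type on day 1 and 256 to 263 on day 4. In ceh-60 mutants that sum was 217 to 229 CPM on day 1 and 226 to 230 on day 4. With age in wild type hlh-1 fell by 1.76 ± 0.34 (adjusted p = 0.000745) and elt-3 by 1.29 ± 0.15 (9.44e-06), while lin-26 rose by 0.18 ± 0.05 (0.00661).

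**Figure D5:**
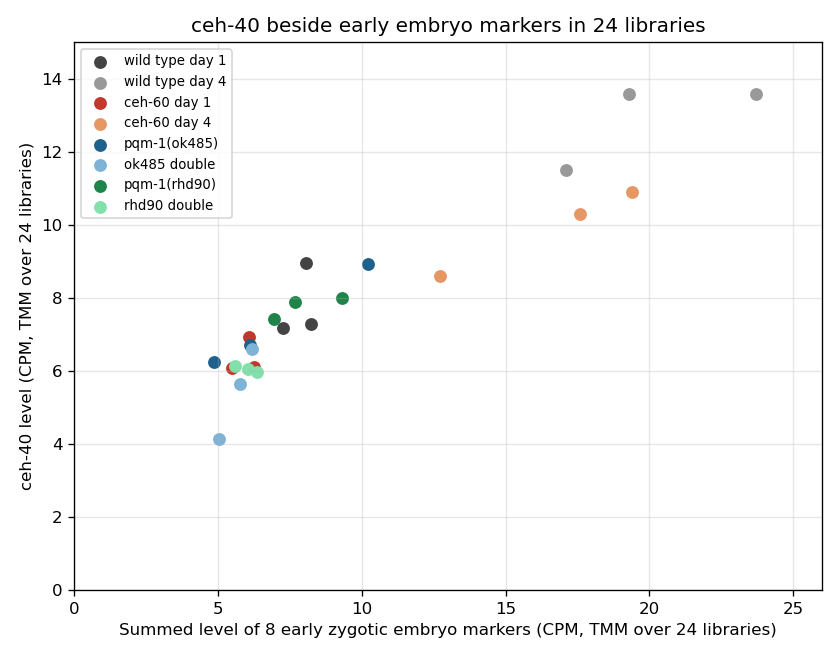
Level of ceh-40 (y axis, CPM) against the summed level of 8 early embryo markers (x axis, CPM) in each of the 24 libraries, colored by group, both with TMM scaling over all libraries. The 6 libraries of day 4 lie at 12.7 or more on the x axis, to the right of the 18 libraries of day 1, which lie at 10.2 or less.

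The pqm-1 alleles were compared within the second table. Between pqm-1(rhd90) and pqm-1(ok485), where 7.39% of all genes were called (15.5% with the replicate number as a block), edgeR called none of the 5 in either fit, none had an unadjusted p under 0.05 without the block, and DESeq2 called none. The log2 fold changes ran from -0.25 ± 0.28 for psa-3 to 0.06 ± 0.17 for ceh-40. Between the double mutants, where 14.3% were called, psa-3 was higher in rhd90 by 1.09 ± 0.26 (2.13-fold, adjusted p = 0.0139). That call was lost without replicate 3 of the rhd90 double mutant (adjusted p = 0.059).

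Comparisons of the pqm-1 strains with wild type and with the ceh-60 mutant cross the tables, so table and genotype cannot be told apart there. Against wild type, where 47.7% of all genes were called, pqm-1(ok485) had more ceh-60 by 0.46 ± 0.16 (adjusted p = 0.0289) and more unc-62 by 0.31 ± 0.08 (adjusted p = 0.00652). The ceh-60 call was lost without replicate 2 of either group (adjusted p up to 0.0838). pqm-1(rhd90) had values of 0.44 ± 0.17 for ceh-60 (adjusted p = 0.0573) and 0.23 ± 0.08 for unc-62 (0.0523) against wild type, with 28.2% of genes called. Against the ceh-60 mutant, the ok485 double mutant gave none of the 5 (14% of all genes called, none of the 5 with an unadjusted p under 0.05 by edgeR and none called by DESeq2). The rhd90 double mutant had more psa-3 by 0.88 ± 0.23 (adjusted p = 0.0251, 9.85% called). This call was lost without replicate 2 or 3 of the ceh-60 mutant on day 1, or replicate 1 or 3 of the rhd90 double mutant, with adjusted p of 0.13, 0.0868, 0.0607 and 0.0937.

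Of the 6 Hox genes, whose proteins bind DNA with PBX and MEIS partners, 1 was called on loss of ceh-60 on day 1, 2 on day 4, 1 in ok485 and 0 in rhd90. The shares of all genes called there were 25.5%, 24.4%, 8.97% and 11.9%, and with 6 genes these counts do not set the list apart. On day 1 mab-5 rose by 0.90 ± 0.28 on the log2 scale (adjusted p = 0.0345). On day 4 the posterior Hox genes php-3 (0.94 ± 0.17, adjusted p = 0.00157) and nob-1 (0.92 ± 0.24, 0.0148) rose. In ok485 lin-39 fell by 0.46 ± 0.13 (0.0477), and all 6 had negative changes. Not called there but with an unadjusted p under 0.05 were egl-5 (-0.61 ± 0.24), php-3 (-0.47 ± 0.18) and nob-1 (-0.56 ± 0.23). In rhd90 edgeR called none, with none at an unadjusted p under 0.05. The list's median was -0.03, 0.07, -0.51 and -0.16 in these comparisons, against -0.03, -0.00, -0.01 and -0.00 for all genes.

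nob-1, whose product is the reported activator of psa-3, can be set beside psa-3. In wild type from day 1 to day 4, where 54.8% of all genes were called, nob-1 fell by 0.64 (adjusted p = 0.0437) and php-3 by 0.65 ± 0.18 (0.00708). ceh-13, an anterior Hox gene, fell by 1.24 ± 0.25 (0.000815), while mab-5 rose by 0.78 ± 0.28 (0.0306). psa-3 and nob-1 both fell with age in wild type and both rose on loss of ceh-60 on day 4. In the rhd90 background, where psa-3 rose by 1.35, nob-1 was at 0.01 ± 0.24. On loss of ceh-60 in ok485 nob-1 was at -0.56 ± 0.23 (adjusted p = 0.175) and psa-3 at 0.00 ± 0.27. On day 1 nob-1 was at -0.09 ± 0.25 and psa-3 at 0.23 ± 0.23. Between the double mutants, where psa-3 was higher in rhd90 by 1.09, nob-1 was at 0.17 ± 0.24. A link between the levels of nob-1 and psa-3 was not tested.

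The next list holds genes reported as regulated by CEH-20 or UNC-62 together with Hox proteins. Of 6 listed, 5 were tested in the fits within a table, and on loss of ceh-60 the single call was egl-18, a GATA factor gene, which fell by 0.18 ± 0.06 on day 4 (adjusted p = 0.039). The medians were -0.20 on day 1, -0.11 on day 4, -0.13 in ok485 and -0.04 in rhd90. With age egl-18 rose by 0.61 ± 0.06 and its neighbour elt-6 by 1.61 ± 0.26 in wild type (adjusted p = 2.28e-06 and 0.000167). On loss of ceh-60 the counts of 0 on day 1, 1 on day 4, 0 in ok485 and 0 in rhd90 by edgeR stand beside 25.5%, 24.4%, 8.97% and 11.9% of all genes. At an unadjusted p under 0.05 the counts were 1, 1, 0 and 1. In ceh-60 mutants 4 of the 5 rose with age, where 52.6% of all genes were called, among them egl-18 (0.53 ± 0.06) and elt-6 (1.12 ± 0.26). The medians with age were 0.44 in wild type and 1.07 in the mutants, against 0.02 and 0.04 for all genes.

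The known targets of CEH-60 and UNC-62, vit-1 to vit-6, fell in all 4 comparisons, 6 of 6 each time, with medians of -5.44 on day 1, -4.38 on day 4, -7.62 in ok485 and -5.86 in rhd90. Among 11 other reported regulators of these genes, 10 were tested, and 2 rose on day 1 and 3 on day 4, near the 25.5% and 24.4% of all genes called. These included pqm-1 (1.42 ± 0.07 on day 1, adjusted p = 2.21e-08, and 0.88 ± 0.06 on day 4, 4.69e-07) and the kinase gene sgk-1 (0.52 ± 0.09, 0.000832, and 0.69 ± 0.09, 7.82e-05). In ok485 (8.97% of all genes called) 1 fell, the lipoprotein receptor gene lrp-2 (-0.30 ± 0.08, adjusted p = 0.0387). In rhd90 (11.9% called) pqm-1, itself the mutated gene there, rose by 0.69 ± 0.09 (0.000205). The list's median was 0.13, 0.14, -0.10 and 0.13 in the order day 1, day 4, ok485 and rhd90. Summed intestine markers also differed, from 493 to 623 CPM in wild type on day 1 against 858 to 1270 in the ceh-60 mutant. On day 4 the sums were 160 to 178 against 304 to 334, and none of the 6 was at 0. ges-1, act-5, ifb-2 and pept-1 rose on both days (25.5% and 24.4% of all genes called). elt-2 rose on day 4 alone (0.36 ± 0.12, adjusted p = 0.0487), and elt-7 was called on neither day. In ok485 (8.97% called) and rhd90 (11.9%) ges-1, act-5 and pept-1 rose, and ifb-2 rose in rhd90 alone. elt-2 and elt-7 were called in neither background. Their changes were negative in ok485 (-0.37 ± 0.12, adjusted p = 0.0815, for elt-2 and -0.28 ± 0.19 for elt-7) and positive in rhd90 (0.22 ± 0.12 and 0.15 ± 0.19). Of 6 body wall muscle markers, 5 rose on day 1 (25.5% of all genes called) and 1 on day 4 (24.4%), and edgeR called 0 in ok485 (8.97%, 1 at an unadjusted p under 0.05) and 0 in rhd90 (11.9%, 0 at that p). The part of these tissues in the values of the 5 genes was not tested.

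Other homeobox genes numbered 88 by symbol. Of 55 tested in the first table, 2 rose and 5 fell on day 1 (25.5% of all genes called), and 4 rose and 6 fell on day 4 (24.4%). Examples are dve-1, which rose on both days (0.44 ± 0.12, adjusted p = 0.0199, and 0.63 ± 0.12, 0.00171), mec-3 (0.93 ± 0.30, 0.0361, and 1.20 ± 0.26, 0.00504) and irx-1, which fell on day 1 (-0.64 ± 0.18, 0.018). Of 56 in the second table, 5 fell in ok485, about the 8.97% of all genes called there, with vab-15 at -1.78 ± 0.32 (adjusted p = 0.00323) and irx-1 at -0.83 ± 0.16 (0.00655), and 1 in rhd90 (11.9% of all genes called), again vab-15 at -1.64 ± 0.34 (0.00652). dve-1 encodes a factor of the mitochondrial stress response, mec-3 a LIM homeodomain factor of touch neurons, irx-1 an Iroquois and vab-15 an Msx class protein. The medians were -0.10 and -0.03 on days 1 and 4, -0.19 in ok485 and -0.00 in rhd90.

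The nearest tested genes around ceh-60 were ttr-36, ttr-35 and ets-4 on its left and ilys-5, svh-2 and dop-3 on its right. On day 1 ets-4 (0.53 ± 0.12, adjusted p = 0.007), ilys-5, a lysozyme gene (1.07 ± 0.06, 5.82e-08) and svh-2, a receptor kinase gene (0.69 ± 0.07, 1.37e-05) rose in the ceh-60 mutant. The same 3 rose on day 4 (0.67, 0.65 and 0.48). Of all genes, 25.5% were called on day 1 and 24.4% on day 4. In the pqm-1 backgrounds ttr-36 and ttr-35 fell, by 0.59 and 0.52 in ok485 and by 0.81 and 0.63 in rhd90, and svh-2 rose by 0.47 in rhd90. The shares of all genes called there were 8.97% in ok485 and 11.9% in rhd90. ets-4, which shares exon bases with ceh-60, was at 0.14 ± 0.10 in ok485 and 0.23 ± 0.10 in rhd90 and was not called in either. pqn-36, which lies inside psa-3, rose with age in wild type (2.20 ± 0.54, adjusted p = 0.00371) where psa-3 fell, and was at -0.37 ± 0.46 (0.586) on loss of ceh-60 on day 4, where psa-3 rose.

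The genes whose level was most like that of each member over the 24 libraries were ranked by Pearson's r on log2 CPM, among genes with a mean of at least 5 CPM. The points share their groups, and the values are a description. For ceh-60 these were gakh-1 (r = 0.96), vit-4 (0.94) and vit-1 (0.93). gakh-1, which encodes a kinase related to the mammalian clathrin-uncoating factor GAK, had 13.7 ± 0.301 CPM in wild type on day 1 and 8.31 ± 1.04 in the ceh-60 mutant, after scaling over all libraries. It had 14.3 ± 0.258 in pqm-1(ok485) against 7.8 ± 0.245 in its double mutant, and 13.6 ± 0.178 in pqm-1(rhd90) against 7.91 ± 0.846. For ceh-20 the closest were cdh-4, a Fat-like cadherin gene (0.90), W04A8.4 (0.89) and daf-3, a SMAD gene (0.86). For ceh-40 they were skr-7, a Skp1-related gene (0.95), pup-3 (0.94) and sex-1, a nuclear receptor gene of sex determination (0.94). For unc-62 they were nhr-88 (0.88), spig-9 (0.88) and T02B11.3 (0.87), and for psa-3 fbxa-74 (0.85), plpp-1.3 (0.85) and acbp-1 (0.84). Between members r was 0.68 for ceh-20 and ceh-40, -0.60 for ceh-40 and psa-3, 0.42 for unc-62 and psa-3 and 0.06 for ceh-60 and unc-62.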

How the data were processed

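RNA of whole C. elegans was measured in 24 libraries. Per the labels' protocols, Trizol was used for extraction and TruSeq RNA v2, a kit that does not mark strand, for the libraries. The growth protocol, given for the first table's samples, describes synchronised animals at 20 °C on OP50. Reads were aligned with STAR 2.5.4, per the submitters' processing notes. The deposited values are raw counts per gene by featureCounts 1.5.2 against WormBase release 260, per the file headers, with strand ignored and reads on several places or genes left out.

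Comparisons used edgeR 4.0.16 under R 4.3.3 (filterByExpr with a minimum count of 10, TMM, quasi-likelihood test, Benjamini-Hochberg threshold 0.05), checked on simulated counts. Fits held the 12 libraries of the first table (13137 genes), the 12 of the second (13324), the 18 of day 1 (13589) and, for the mean effect, all 24 (14000). This last comparison and the ceh-60 effect in rhd90 minus ok485 were added after the data had been seen. Intervals are 95% and come from the fit. Genes were named as members, as the up to 2 rising and 2 falling list genes with the smallest p, as the 3 most alike per member (prior count 2) and as the 3 nearest tested genes on each side of ceh-60. nob-1 and the overlapping genes were named for their relation to members, and the intestine markers were all named. The members and lists were chosen with earlier results of these data known. Same-numbered libraries were taken as paired where every correlation of their deviations was over 0.1, which held for loss of ceh-60 in pqm-1(ok485) (0.173 to 0.486) and for the pqm-1 alleles (0.125 to 0.473). Values for both comparisons are from the fit without a replicate block unless a block is named. In these paired comparisons the block changed, among the members, only the call of ceh-40 on loss of ceh-60 in ok485. Calls of list genes under the block are not given. Alternatives were DESeq2 1.42.0, RLE size factors, no filter, the compared groups alone, a replicate block, other CPM scalings and leaving out each library.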

Additional observations from a re-analysis of the deposited data

How the results depend on the processing

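No called change reversed under any alternative tried. With the replicate number as a block, ceh-40 on loss of ceh-60 passed on day 1 (-0.31, adjusted p = 0.0287) and in ok485 (-0.45, 0.036), ceh-60 passed with age in wild type (-0.39, 0.0485) and in rhd90 against wild type (0.44, 0.04), and ceh-20 passed in the rhd90 double mutant against the ceh-60 mutant (0.33, 0.0354). Genes called under the block were 2160 for ceh-60 loss in ok485, 2069 for rhd90 against ok485, 3274 between the double mutants, 943 and 61 for its effect in ok485 and in rhd90 minus wild type, and 241 for rhd90 minus ok485. Where numbers do not pair the libraries they share only a number.

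With only the compared groups in the fit, ceh-40 on day 4 no longer passed (-0.34, adjusted p = 0.0784), while ceh-60 with age in wild type (-0.40, 0.0187) and, in rhd90 against wild type, ceh-60 (0.43, 0.0165) and unc-62 (0.22, 0.0279) did. Genes called were then 616 for rhd90 against ok485, 388 for the effect in ok485 minus wild type and 4193 for ok485 against wild type. unc-62 in rhd90 against wild type also passed with RLE (0.23, 0.0413) and DESeq2 (0.23, 0.0357), and ceh-60 there with DESeq2 (0.44, 0.0456). For differences of the ceh-60 effect, DESeq2 called 920 (ok485 minus wild type), 101 (rhd90 minus wild type) and 119 genes (rhd90 minus ok485), against 602, 37 and 46 by edgeR. Without a filter 905 genes were called for the effect on day 4 minus day 1 (531 with it), 151 for rhd90 minus wild type and 96 for rhd90 minus ok485. The causes were not tested.

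Leaving out each library in turn gave ranges of 1899 to 3708 genes for ceh-60 loss on day 1, 306 to 567 for day 4 minus day 1, 738 to 1224 for loss in ok485, 187 to 2186 for rhd90 against ok485, 947 to 2940 between the double mutants, 220 to 1044 and 14 to 69 for ok485 and rhd90 minus wild type, 680 to 2505 and 473 to 2532 for the ok485 and rhd90 double mutants against the ceh-60 mutant, and 14 to 100 for rhd90 minus ok485. Log2 fold changes whose call changed ran from -0.45 to -0.27 (ceh-40) and 0.11 to 0.17 (unc-62) on loss of ceh-60 on day 4, -0.48 to -0.35 (ceh-60 with age in wild type), 0.99 to 1.19 (psa-3 between the double mutants), 0.43 to 0.59 (ceh-60, ok485 against wild type), 0.37 to 0.52 and 0.2 to 0.29 (ceh-60 and unc-62, rhd90 against wild type), and 0.3 to 0.39 and 0.74 to 1.08 (ceh-20 and psa-3, rhd90 double mutant against the ceh-60 mutant). The count of psa-3, 14 to 65 reads per library, limits how small a change could be detected.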
